A study of Mus musculus with 4 samples.

Results

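Oxidative phosphorylation is the process by which mitochondria turn the electrons of NADH and succinate into ATP. Complex I oxidises NADH and complex II oxidises succinate. Complex III passes the electrons to the small carrier cytochrome c, and complex IV hands them to oxygen. The proton gradient built up on the way drives complex V, the ATP synthase. Most subunits are encoded in the nucleus, and the genes described here are those nuclear genes. In the colon, the lining epithelial cells depend on mitochondrial oxidation of butyrate, whereas neutrophils depend mainly on glycolysis.

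The genes were chosen by symbol, as every row of the count table beginning with Nduf, Uqcr, Atp5, Cox4, Cox5, Cox6, Cox7 or Cox8, together with Sdha, Sdhb, Sdhc, Sdhd, Cyc1 and Cycs. This gave 115 of the 53819 rows. By role they comprised 40 rows for complex I subunits, 8 for complex I assembly factors (the Ndufaf genes, whose products build complex I without staying in it), 4 for complex II, 9 for complex III, 1 for cytochrome c, 18 for complex IV, 17 for complex V and 18 pseudogene rows. Ndufa4 and Ndufa4l2 were kept with complex I by their symbols, although the NDUFA4 protein is now regarded as a complex IV subunit. RNA came from samples labelled as primary colonic eosinophils of wild-type C57Bl/6 mice; the titles also carry D6, which is not explained. One group drank water and the other was given 3% DSS (dextran sulfate sodium), which damages the lining of the colon. Each group had 2 libraries, and no other allele or agent is named. No label states whether separate mice were used, and any p-value here reflects only how these 4 libraries vary, possibly for technical reasons.

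The libraries held between 30985905 and 34126329 counts. The labelled cell type was not borne out by its markers: Siglecf, Ccr3, Il5ra, Prg2 and Epx summed to between 2.55 and 125 CPM (counts scaled to TMM-adjusted library size), Il5ra was at 0 in water replicate 1, and Epx was at 0 in water replicate 1 and DSS replicate 1. The epithelial markers Epcam, Krt8, Krt20, Cdh1 and Vil1 summed to between 1878 and 4832 CPM. The samples are therefore called by their libraries below, and in such mixed bulk RNA fewer cells of a type and less RNA per cell cannot be told apart. DSS replicate 1 stood apart through its immunoglobulin genes, which took 29.0% of counts against between 6.18% and 7.61% elsewhere. Pancreatic markers stood at 5747 CPM in water replicate 1 and at 30.7 CPM or less in the others.

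Nuclear respiratory genes are classically linked to the nuclear respiratory factors NRF1 and NRF2, the latter an ETS protein also called GABP. Promoter windows from RefSeq (GRCm38.p6, 250 bases before to 50 after a gene's start) are shown for a few of the genes described here. Whether these factors act on the genes in these samples was not tested. For complexes I to V the gene shown is the most abundant one whose window holds an NRF1 match. Cycs is shown as the cytochrome c gene, and Cox7a1 as the gene with the most negative fold change. They are Ndufa6 at chr15:82354242-82354541 (minus strand), Sdha at chr13:74350191-74350490 (minus), Uqcrc1 at chr9:108936398-108936697 (plus), Cox6a1 at chr5:115348909-115349208 (minus), Atp5g3 at chr2:73911277-73911576 (minus), Cycs at chr6:50566520-50566819 (minus) and Cox7a1 at chr7:30183921-30184220 (plus). Each is written 5′ to 3′ on the gene's strand. Capitals mark matches on either strand to an NRF1 motif and to the ETS motif CCGGAAG. The NRF1 motif allowed any base at a position near its middle, so a marked stretch need not be a palindrome.
Ndufa6: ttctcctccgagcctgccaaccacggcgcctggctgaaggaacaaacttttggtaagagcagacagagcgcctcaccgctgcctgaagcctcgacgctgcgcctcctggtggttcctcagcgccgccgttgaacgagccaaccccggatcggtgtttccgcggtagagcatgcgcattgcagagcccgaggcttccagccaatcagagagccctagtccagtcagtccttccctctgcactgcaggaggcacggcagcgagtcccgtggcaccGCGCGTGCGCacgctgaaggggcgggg
Sdha: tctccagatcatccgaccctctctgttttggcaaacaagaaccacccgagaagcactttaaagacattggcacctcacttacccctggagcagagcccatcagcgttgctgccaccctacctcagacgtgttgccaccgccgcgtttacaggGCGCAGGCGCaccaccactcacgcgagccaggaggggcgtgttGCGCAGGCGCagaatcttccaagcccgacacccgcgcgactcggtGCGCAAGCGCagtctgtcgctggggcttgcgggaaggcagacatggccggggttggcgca
Uqcrc1: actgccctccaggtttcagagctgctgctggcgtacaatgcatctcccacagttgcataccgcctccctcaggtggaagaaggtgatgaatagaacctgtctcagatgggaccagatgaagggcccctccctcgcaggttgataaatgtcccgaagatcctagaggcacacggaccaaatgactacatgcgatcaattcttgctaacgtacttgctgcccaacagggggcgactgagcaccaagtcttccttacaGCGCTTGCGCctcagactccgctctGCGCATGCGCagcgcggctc
Cox6a1: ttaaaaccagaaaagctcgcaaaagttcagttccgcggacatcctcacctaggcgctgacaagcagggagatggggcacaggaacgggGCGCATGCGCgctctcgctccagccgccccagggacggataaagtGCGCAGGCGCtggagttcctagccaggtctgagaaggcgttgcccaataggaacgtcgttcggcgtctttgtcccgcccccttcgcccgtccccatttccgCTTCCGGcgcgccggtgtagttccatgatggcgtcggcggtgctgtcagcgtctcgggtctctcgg
Atp5g3: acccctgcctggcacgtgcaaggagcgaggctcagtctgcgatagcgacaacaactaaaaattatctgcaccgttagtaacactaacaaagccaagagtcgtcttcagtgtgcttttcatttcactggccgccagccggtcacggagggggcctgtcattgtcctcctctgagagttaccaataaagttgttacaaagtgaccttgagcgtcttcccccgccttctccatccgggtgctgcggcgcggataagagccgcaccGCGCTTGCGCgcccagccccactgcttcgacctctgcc
Cycs: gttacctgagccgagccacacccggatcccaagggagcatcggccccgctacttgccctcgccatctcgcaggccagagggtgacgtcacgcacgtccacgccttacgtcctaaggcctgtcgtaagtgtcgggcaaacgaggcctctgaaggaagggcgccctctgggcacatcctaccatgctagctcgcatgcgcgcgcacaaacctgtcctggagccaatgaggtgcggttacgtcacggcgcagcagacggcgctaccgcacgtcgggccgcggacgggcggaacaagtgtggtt
Cox7a1: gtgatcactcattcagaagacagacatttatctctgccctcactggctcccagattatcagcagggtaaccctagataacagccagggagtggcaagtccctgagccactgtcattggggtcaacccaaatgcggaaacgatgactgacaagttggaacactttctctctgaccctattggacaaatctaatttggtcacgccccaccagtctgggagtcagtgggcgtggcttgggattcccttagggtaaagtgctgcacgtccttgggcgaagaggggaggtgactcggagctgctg

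Sdha carried 3 NRF1 matches and Cox6a1 carried 2 together with an ETS match. Cycs and Cox7a1 carried no match to either set of letters in these windows. The table held windows for 78 of the 97 genes that are not pseudogene rows, 83 windows in all. The NRF1 letters occurred in 24.1% of these windows against 4.60% of all 32851 promoter windows. The ETS letters occurred in 22.9% against 8.86%. AAGATGG, the letters of a YY1 site, occurred in 14.5% against 6.34%, and CAAGGTCA, those of an ERR alpha site, in 4.82% against 1.56%. Both strands were searched, and matches to different motifs overlapped in 0 of the 83 windows. These are letter matches, not measured sites. The set of all promoter windows was not matched to these genes in base composition or expression level. The 19 genes with an NRF1 match had a median log2 fold change (DSS minus water) of -0.27, and the 58 tested genes without one had -0.37. With and without a match the medians were -0.38 and -0.35 for ETS, -0.32 and -0.38 for YY1, and -0.26 and -0.38 for ERR alpha.

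Of the 115 rows, 96 passed the count filter and were tested, 93 of them outside the pseudogene rows. The 19 others comprised 15 pseudogene rows, Ndufb11b, Cox6a2, Cox7b2 and Cox8c. Of these 19, 9 had 0 reads in every library, among them the testis isoform genes Cox7b2 and Cox8c, and the highest single count was 28 (Cox6a2 in water replicate 2). The comparison of DSS with water asked whether transcripts of the respiratory chain differ in these samples during colitis. edgeR's quasi-likelihood test called 0 of the 96 tested genes, and the lowest adjusted p was 0.665 (Ndufa5, log2 fold change -0.80). Over all 18788 genes tested it called 0% higher and 0.016% lower. None of the 96 had an unadjusted p under 0.05, where 5.06% of all genes did with higher and 3.39% with lower values in DSS. DESeq2 called 0 of them, against 1.64% higher and 0.89% lower over all genes, and limma-voom called 0 in both cases (0%).

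The fitted fold changes of the tested genes were small and mostly negative. Of the 96, 88 lay below 0 and 8 above (93 and 3 with upper-quartile scaling). Their median was -0.36, and the median over all genes tested was -0.01. They ran from -1.13 (Cox7a1) to 0.18 (Ndufa4l2), and 2 exceeded 1 in size. These were Cox7a1 and Ndufb2 (-1.06), which reached 12.4 CPM in water replicate 1 and between 4.02 and 4.56 CPM in the other libraries. Ndufb2 overlaps exons of Gm42420 on the same strand and of Braf and Gm16272 on the opposite strand. Its reads may not be separable from theirs. Standard errors of the 96 ran from 0.26 to 1.77 with a median of 0.37. A typical gene's difference was therefore about the size of its error. The DSS libraries both lay below both water libraries for 16 genes, 16.7% of those tested, where 18.7% of all genes did so. They both lay above for 0 of the 96, where 20.8% of all genes did so. For any 1 gene, exact two-sided permutation over 2 and 2 libraries has a smallest possible p of 0.333.

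**Figure D1:**
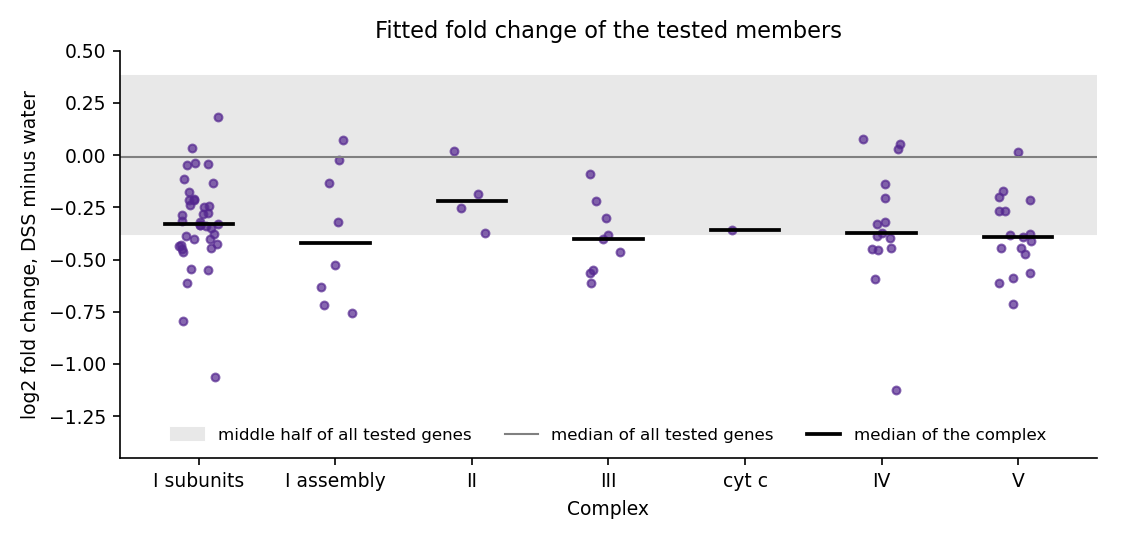
Fitted log2 fold change (DSS minus water, y axis) of each tested gene outside the pseudogene rows, by complex (x axis); black bars are medians of a complex, the grey line is the median of all tested genes and the grey band holds their values from the lower to the upper quartile (-0.38 to 0.38). Medians of the complexes lie between -0.22 (complex II) and -0.42 (complex I assembly factors).

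The median rested on which libraries were compared. Leaving out water replicate 1 moved it to -0.08, as did leaving out DSS replicate 1. Without water replicate 2 it was -0.61, and without DSS replicate 2 it was -0.72. The spread within each group was as large as the difference between groups. Water replicate 1 exceeded water replicate 2 by a median of 0.55 on the log2(CPM + 0.5) scale, and DSS replicate 2 exceeded DSS replicate 1 by 0.60, whereas over all genes these medians were 0 and 0.02. For 87 of the 96 genes at least 1 of these gaps within a group was larger than the fitted difference between groups, and for 65 both were.

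Most of the genes shared an order of libraries. Water replicate 1 was the highest library for 81 of 96 genes (84.4%, against 30.9% of all genes tested), and DSS replicate 1 was the lowest for 87 (90.6%, against 31.6%). The full order of water replicate 1, DSS replicate 2, water replicate 2 and DSS replicate 1 held for 61 genes (63.5%, against 9.39% of all genes). By complex, it held for 88.9% of complex III, 76.5% of complex V, 64.1% of complex I subunits, 60% of complex IV and 50% of complex II. Only 12.5% of the complex I assembly factors held it. Other lists also held that order more often than all genes did. It held for 50% of a list of carrier and related genes and 44.9% of cytosolic ribosomal protein genes. For assembly factors outside the Ndufaf genes the share was 42.1%, and for mitochondrial ribosomal protein genes 31.2%. The sums of both ribosomal lists stood in that order too. Among the exceptions, DSS replicate 2 was the highest library for 11 genes, water replicate 2 for 3 and DSS replicate 1 for Ndufa4 alone.

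**Figure D2:**
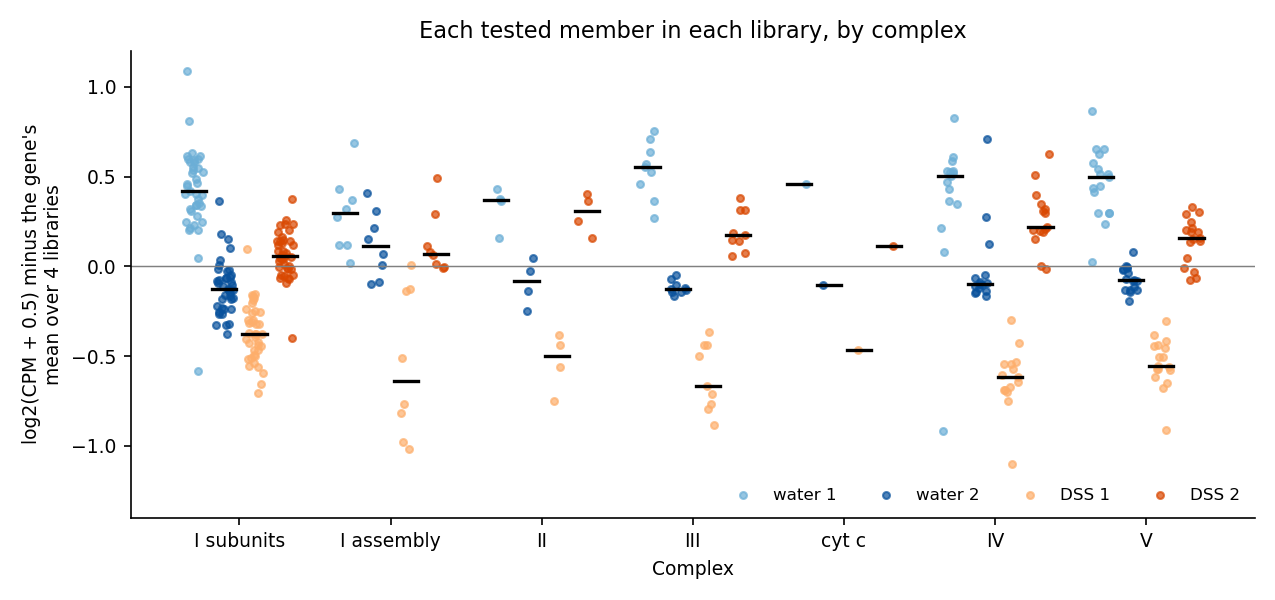
Each tested gene outside the pseudogene rows as a point for each library (colour), placed as log2(CPM + 0.5) minus the gene's mean over the 4 libraries (y axis), by complex (x axis); black bars are medians. Water replicate 1 sits highest and DSS replicate 1 lowest in every complex, and the remaining libraries lie between them.

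The sum of the epithelial markers stood in the same order of libraries. Cdh1 alone among them did not, at 350 and 326 CPM on water, against 196 and 413 CPM on DSS. The 5 epithelial markers summed to 4832 and 3133 CPM in water replicates 1 and 2 and to 1878 and 4440 CPM in DSS replicates 1 and 2, with none at 0. The members summed to 11466 and 8025 CPM on water, against 5984 and 9691 CPM on DSS. The ratio of the members' sum to the epithelial sum was 2.37 and 2.56 in water and 3.19 and 2.18 in DSS, a span of 1.46-fold, where the members' sum itself spanned 1.92-fold. Divided by other lists, the members' sum spanned 1.28-fold (tricarboxylic acid cycle), 1.32-fold (mitochondrial ribosomal proteins), 1.51-fold (cytosolic ribosomal proteins) and 1.8-fold (mitochondrially encoded subunits). The divisors' own sums spanned 1.5-fold, 1.48-fold, 1.27-fold and 1.48-fold in that order, against 2.57-fold for the epithelial markers. These ratio spans are therefore not directly comparable. Plasma cell markers, which were highest in DSS replicate 1, summed to 57352, 44666, 288480 and 59107 CPM in the same library order. Neutrophil markers (6 genes, of which Ngp and Cxcr2 were at 0 in a water library) summed to 22.6 and 74.9 CPM on water, against 1015 and 1088 CPM on DSS. The part of these markers in the members' differences was not tested.

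**Figure D3:**
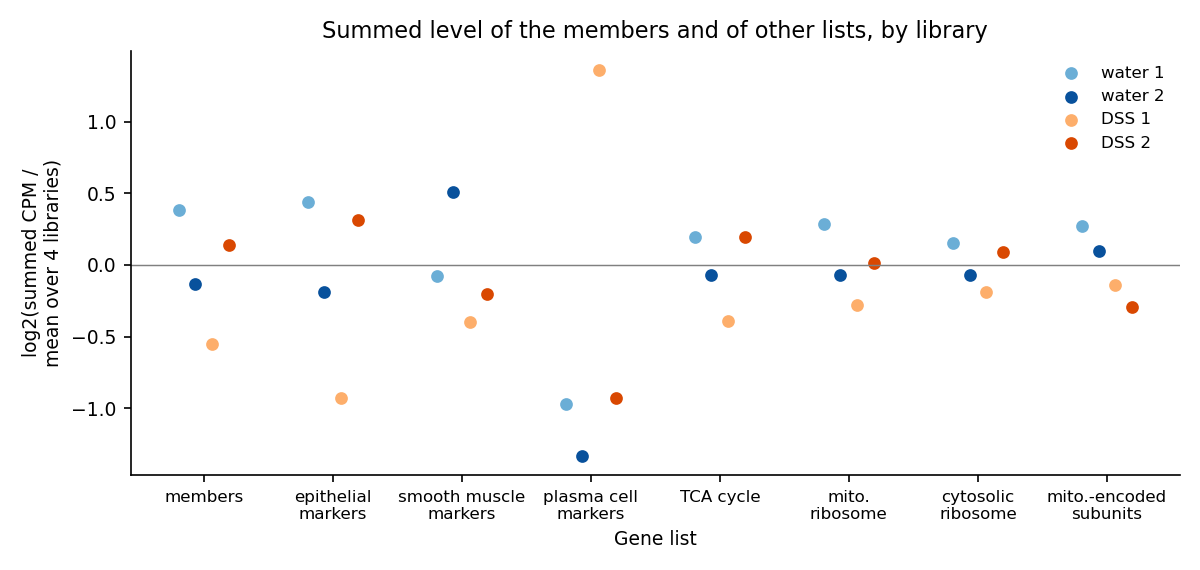
Summed CPM of the members and of other gene lists in each library (colour), as log2 of the sum over its mean in the 4 libraries (y axis). The members and the epithelial markers share the order water 1, DSS 2, water 2, DSS 1, and the plasma cell markers stand highest in DSS 1.

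As a sum over complexes, the members took 1.21% and 0.887% of all counts on water, against 0.487% and 0.998% on DSS. Each exact 95% binomial interval was at most 0.00757 percentage points wide. It covers counting error only and takes each count as an independent read. Without immunoglobulin, mitochondrially encoded and ribosomal RNA genes in the total, the shares became 1.56% and 1.11% on water, against 0.784% and 1.21% on DSS. The summed level was 9745 ± 2433 CPM (SD, n = 2) in water and 7838 ± 2621 in DSS (n = 2), a log2 ratio of -0.31, and the groups overlapped. The makeup of that sum by complex differed little between libraries. Complex V held 35.9% and 37.6% of it in water and 36.2% and 36.9% in DSS. Complex IV held between 19.1% and 21.5%, complex III between 11.2% and 12.7%, and complex II between 5.05% and 6.06%. Complex I subunits held 23.1% and 22.9% in water, 25.7% in DSS replicate 1 and 21.5% in DSS replicate 2.

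**Figure D4:**
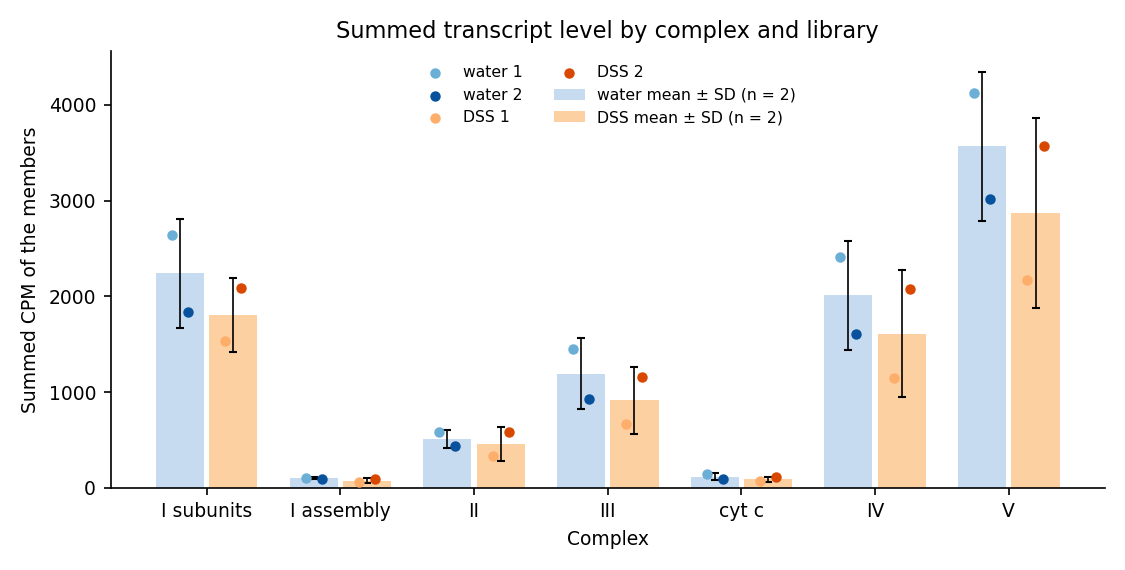
Summed CPM (y axis, from 0) of the rows of each complex (x axis) in each library (points), with the group mean (bars) and SD over 2 libraries (error bars). The water and DSS libraries overlap in every complex; complex V, the largest sum, stands at 4120 and 3018 CPM on water and 2168 and 3573 CPM on DSS.

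Complex I takes electrons from NADH and is the largest of the chain. Its 39 tested subunit genes had a median log2 fold change of -0.33, with 37 below 0 and 2 above, and the groups did not overlap for 7 (17.9%, all lower, against 18.7% of all genes). The median was -0.04 without water replicate 1, -0.11 without DSS replicate 1; leaving out DSS replicate 2 gave -0.57, and leaving out water replicate 2 gave -0.55. Its catalytic core carries the flavin and iron-sulphur centres. Ndufv1, which encodes the NADH-binding subunit, reached 121 and 88.4 CPM on water, against 68.1 and 96.1 CPM on DSS. The groups overlapped, with DSS replicate 1 the lowest. Ndufs3, another core subunit, reached 65.0 and 49.4 CPM on water, against 49.5 and 62.0 CPM on DSS, so its 2 lower libraries were 1 from each group.

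The most negative values among genes from 10 CPM belonged to accessory subunits. Ndufa5 reached 66.1 and 36.1 CPM on water, against 23.6 and 35.2 CPM on DSS (51.1 ± 21.2 and 29.4 ± 8.16, SD, n = 2; fitted log2 fold change -0.80 with SE 0.38, edgeR adjusted p = 0.665). The groups did not overlap, but water replicate 2 and DSS replicate 2 were within 1 CPM of each other. Ndufc1, a small membrane-arm subunit, reached 46.3 and 29.4 CPM on water, against 20.8 and 28.6 CPM on DSS (fitted log2 fold change -0.61 with SE 0.33, adjusted p = 0.703). Ndufa10, an accessory subunit of the membrane arm, reached 112 and 89.0 CPM on water, against 69.4 and 95.7 CPM on DSS.

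Ndufa4 differed little across libraries. It reached 75.6 and 69.0 CPM on water, against 78.2 and 69.8 CPM on DSS (fitted log2 fold change 0.03 with SE 0.26, and -0.01 with upper-quartile scaling). DSS replicate 1, the lowest library for most of the genes, was its highest. Its paralogue Ndufa4l2, a hypoxia-induced gene, reached 4.03 and 8.20 CPM on water, against 5.58 and 8.28 CPM on DSS (fitted log2 fold change 0.18 with SE 0.50). Here water replicate 1 was the lowest library, the reverse of its place for most of the genes. Ndufa4l2 overlaps exons of Shmt2 on the opposite strand, and strandedness of the library is not stated, so reads of that pair may not be separable.

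The complex I assembly factors had a median log2 fold change of -0.42, with 7 of 8 below 0. For 5 of the 8 (62.5%) the groups did not overlap, all lower in DSS, where 18.7% of all genes did so. These were Ndufaf1, Ndufaf2, Ndufaf3, Ndufaf4 and Ndufaf5. Ndufaf4 reached 27.8 and 17.9 CPM on water, against 9.82 and 17.2 CPM on DSS (fitted log2 fold change -0.76 with SE 0.40, edgeR adjusted p = 0.692). Ndufaf3 reached 17.1 and 14.6 CPM on water, against 9.04 and 13.01 CPM on DSS (fitted log2 fold change -0.52 with SE 0.33, adjusted p = 0.752). In both genes DSS replicate 2 lay only a little below water replicate 2. Unlike the subunits, the assembly factors differed little between the water libraries, with a median gap of 0.12 on the log2 scale, and more between the DSS libraries, with 0.64. Their median was -1.01 without DSS replicate 2 and -0.09 without DSS replicate 1. Ndufaf7, a methyltransferase, reached 16.9 and 15.6 CPM on water, against 16.7 and 17.4 CPM on DSS, and Ndufaf8 reached 13.3 and 12.7 CPM on water, against 5.28 and 15.5 CPM on DSS.

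Complex II, succinate dehydrogenase, also belongs to the tricarboxylic acid cycle and has only nuclear subunits. Sdha, which encodes the flavoprotein that oxidises succinate, reached 225 and 183 CPM on water, against 155 and 259 CPM on DSS (fitted log2 fold change 0.02 with SE 0.38, and -0.04 with upper-quartile scaling). The iron-sulphur subunit gene Sdhb reached 122 and 75.9 CPM on water, against 66.4 and 107 CPM on DSS (fitted log2 fold change -0.18 with SE 0.38). In both genes the DSS libraries enclosed a water library. The membrane anchor genes Sdhc and Sdhd had log2 fold changes of -0.37 (SE 0.34) and -0.25 (SE 0.44). Sdhc reached 112 and 89.4 CPM on water, against 58.7 and 96.6 CPM on DSS. Sdhd reached 122 and 91.9 CPM on water, against 55.4 and 124 CPM on DSS. DSS replicate 1 was the lowest library for all 4 genes, and the groups overlapped for all 4. The median of the complex was -0.22 with every library, 0.03 without water replicate 1, 0.16 without DSS replicate 1; leaving out DSS replicate 2 gave -0.67, and leaving out water replicate 2 gave -0.45.

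Complex III passes electrons from ubiquinol to cytochrome c. All 9 genes were tested, all lay below 0 with a median of -0.40, and the groups overlapped for all 9. Its median was -0.11 without water replicate 1, -0.15 without DSS replicate 1; leaving out DSS replicate 2 gave -0.87, and leaving out water replicate 2 gave -0.68. Cyc1, the gene of cytochrome c1, reached 254 and 142 CPM on water, against 91.0 and 177 CPM on DSS (198 ± 78.8 and 134 ± 60.5, SD, n = 2; fitted log2 fold change -0.57 with SE 0.47, edgeR adjusted p = 0.812). Uqcr11, a small accessory subunit gene, reached 102 and 54.9 CPM on water, against 34.4 and 67.9 CPM on DSS (fitted log2 fold change -0.61 with SE 0.45). Both followed the common order of libraries. The core protein gene Uqcrc1 reached 225 and 158 CPM on water, against 135 and 193 CPM on DSS (fitted log2 fold change -0.22 with SE 0.36). Uqcrc2, the other core protein gene, reached 126 and 94.4 CPM on water, against 77.1 and 130.0 CPM on DSS (fitted log2 fold change -0.09 with SE 0.37). Uqcrfs1, which encodes the Rieske iron-sulphur protein, reached 174 and 118 CPM on water, against 79.7 and 157 CPM on DSS (fitted log2 fold change -0.30 with SE 0.43). Cycs, the somatic cytochrome c, which also triggers apoptosome assembly when it leaves mitochondria, reached 141 and 95.0 CPM on water, against 73.6 and 110.3 CPM on DSS (fitted log2 fold change -0.36 with SE 0.36, edgeR adjusted p = 0.854).

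Complex IV, cytochrome c oxidase, has 3 core subunits encoded in mitochondrial DNA and nuclear subunits that surround them, several of which exist as tissue isoforms. Of 15 tested genes 12 lay below 0 and 3 above, with a median of -0.37. With upper-quartile scaling Cox7a2l (-0.03) and Cox8b (-0.01) also lay below 0. The groups did not overlap for 2, Cox7a1 and Cox6b2 (13.3%, both lower, against 18.7% of all genes). The median was -0.07 without water replicate 1, -0.04 without DSS replicate 1; leaving out DSS replicate 2 gave -0.89, and leaving out water replicate 2 gave -0.65. The ubiquitous Cox4i1 reached 354 and 248 CPM on water, against 192 and 354 CPM on DSS (fitted log2 fold change -0.14 with SE 0.43, adjusted p = 0.964). Its highest libraries were 1 of each group. Cox6a1 reached 351 and 231 CPM on water, against 163 and 283 CPM on DSS (fitted log2 fold change -0.39 with SE 0.43). Cox8a reached 279 and 175 CPM on water, against 119 and 241 CPM on DSS (fitted log2 fold change -0.33 with SE 0.46). The zinc-binding subunit gene Cox5b reached 282 and 168 CPM on water, against 116 and 213 CPM on DSS (-0.45, SE 0.45), and Cox7b reached 188 and 116 CPM on water, against 77.5 and 144 CPM on DSS (-0.45, SE 0.43). Cox7a2l reached 111 and 102 CPM on water, against 78.0 and 139 CPM on DSS (0.03, SE 0.36). Per kilobase of spliced length, Cox6a1 was the most abundant of the members with a length, at 450.4 CPM per kilobase averaged over both groups, ahead of Atp5b at 409.7 and Cox4i1 at 385.4.

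Among the tissue isoforms, Cox7a1, the form of heart, muscle and brown fat, reached 8.60 and 5.72 CPM on water, against 1.90 and 4.64 CPM on DSS (7.16 ± 2.03 and 3.27 ± 1.94, SD, n = 2; fitted log2 fold change -1.13 with SE 0.57, edgeR adjusted p = 0.682). The groups did not overlap. Cox7a2, the common form, reached 117 and 75.01 CPM on water, against 51.4 and 94.0 CPM on DSS (fitted log2 fold change -0.40 with SE 0.40) and did overlap. Cox7a1 therefore took 6.87% and 7.09% of the pair's reads on water, against 3.56% and 4.70% on DSS. The exact 95% intervals of the water shares began at 6.12% and 6.16%, and those of the DSS shares ended at 4.66% and 5.46%. Such intervals cover counting error only and hold no variation between libraries. They take each count as an independent read, and are too narrow if counts are not independent. Smooth muscle markers, none at 0, summed to 1305 and 1967 CPM on water, against 1046 and 1200 CPM on DSS, and adipocyte markers to 9.99, 3.62, 3.35 and 53.4 CPM in the same order; the adipocyte marker Ucp1 was at 0 in all libraries but DSS replicate 2. Striated muscle markers summed to 158 and 82.0 CPM on water, against 53.2 and 72.1 CPM on DSS. Acta1 made up most of that sum, at 157 and 79.0 CPM on water, against 50.5 and 70.9 CPM on DSS. Acta1 and the sum had the library order of Cox7a1, without overlap of the groups. Tnnt3 did not, at 0.385 and 2.57 CPM on water, against 2.31 and 1.11 CPM on DSS. Ckm reached 0.563 and 0.496 CPM on water, against 0.335 and 0.0569 CPM on DSS, and Myh4 was at 0 in every library. The part of the muscle and adipocyte markers in the Cox7a1 share was not tested.

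Of the other pairs, the groups did not overlap in the share of Cox6b2 either. For any 1 pair, exact two-sided permutation over 2 and 2 libraries has a smallest possible p of 0.333. Cox6b2, a testis form, took 3.75% and 4.16% of the Cox6b reads in water and 3.33% and 2.84% in DSS, with intervals of water replicate 1 (3.26% to 4.28%) and DSS replicate 1 (2.64% to 4.14%) that overlapped. Cox4i2, a form linked to low oxygen and to the lung, took 0.442% and 2.32% of the Cox4 reads in water and 1.37% and 1.41% in DSS. Ndufa4l2 took 5.07% and 10.6% of its pair in water and 6.66% and 10.6% in DSS. Both were lowest in water replicate 1. The muscle forms were close to absent. Cox6a2 had 0 reads in water replicate 1, which allows up to 0.0253% of its pair, and 28, 6 and 6 reads in the others. Cox8b had 16 and 10 reads in water, 0 in DSS replicate 1 (up to 0.0936% of its pair) and 28 in DSS replicate 2. Both upper limits take each count as an independent read.

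**Figure D5:**
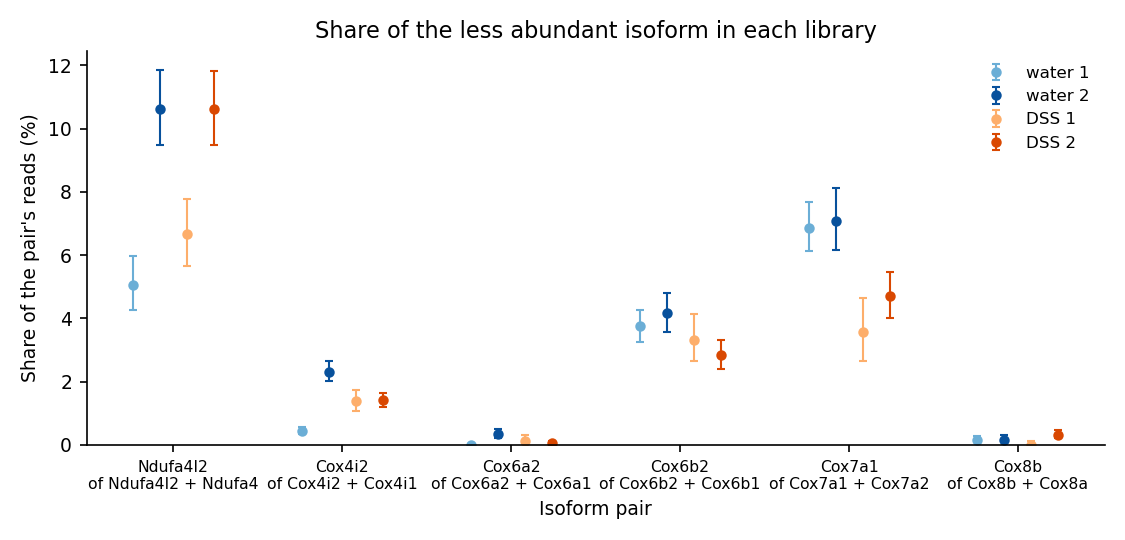
Share of reads (percent, y axis) that the less abundant isoform gene took of its pair (x axis) in each library (colour). The exact 95% binomial intervals cover counting error only and take each count as an independent read. Cox7a1 took 6.87% and 7.09% on water, against 3.56% and 4.70% on DSS, whereas the Ndufa4l2 and Cox4i2 shares were lowest in water replicate 1.

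Complex V makes ATP with a catalytic head driven by a membrane rotor. Of its 17 tested genes 16 lay below 0, with a median of -0.39, and the groups did not overlap for 2, Atp5e and Atp5mpl (11.8%, both lower, against 18.7% of all genes). The median was -0.11 without water replicate 1, -0.10 without DSS replicate 1; leaving out DSS replicate 2 gave -0.78, and leaving out water replicate 2 gave -0.65. The head subunit genes were the most abundant by CPM. Atp5b, of the catalytic beta subunit, reached 944 and 770.3 CPM on water, against 541 and 884 CPM on DSS (857 ± 123 and 712 ± 243, SD, n = 2; fitted log2 fold change -0.27 with SE 0.42, edgeR adjusted p = 0.913). Atp5a1, of the alpha subunit, reached 765 and 613 CPM on water, against 418 and 769 CPM on DSS (fitted log2 fold change -0.21 with SE 0.44). In both genes DSS replicate 1 alone stood below the rest. Atp5d, of the delta subunit in the central stalk, reached 284 and 187 CPM on water, against 124 and 235 CPM on DSS (-0.39, SE 0.44).

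Small subunit genes, Atp5k and Atp5e, had the most negative fold changes of complex V among genes from 10 CPM. Atp5k, of the e subunit that helps synthase dimers form, reached 66.6 and 32.8 CPM on water, against 19.1 and 41.6 CPM on DSS (fitted log2 fold change -0.71 with SE 0.49). Atp5e, of the epsilon subunit, reached 178 and 107 CPM on water, against 79.6 and 107 CPM on DSS (-0.61, SE 0.37), so water replicate 2 and DSS replicate 2 were nearly equal. Atp5g2, 1 of the 3 genes of the rotor's c subunit, reached 101 and 98.1 CPM on water, against 80.0 and 121 CPM on DSS (0.02, SE 0.32, and -0.04 with upper-quartile scaling). Atp5pb, of the peripheral stalk, reached 195 and 161 CPM on water, against 127 and 189 CPM on DSS (-0.17, SE 0.35).

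Shorter transcripts tended to lie lower in DSS, and also lower in water replicate 2 than in water replicate 1. Among the 90 tested genes with a spliced length in GENCODE vM21, the 62 under 1000 bases had a median log2 fold change of -0.39 and the 28 longer ones -0.24. Over 14954 protein-coding genes the corresponding medians were -0.12 and -0.01. Across the 90 genes, which share libraries and are not independent, Spearman's rho between length and log2 fold change was 0.35 (Pearson's r with log2 length 0.30), and 0.13 (0.06) across all protein-coding genes. The gap of water replicate 1 over water replicate 2 had a median of 0.63 for the shorter and 0.38 for the longer genes. Its Spearman's rho with length was -0.37 across the 90 genes and -0.19 across all protein-coding genes. The gap of DSS replicate 2 over DSS replicate 1 had medians of 0.60 and 0.59, with rho of -0.12 and -0.11.

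The pseudogene rows were nearly silent. They summed to between 1.67 and 6.08 CPM per library, and 3 of 18 were tested. The multi-copy nature of several of these families means that reads shared between a gene and its processed copies could have been split or dropped in counting.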

How the data were processed

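The authors deposited raw read counts per gene symbol, 1 column per library, with no normalization. Per the submitters' processing notes the tools were STAR, HISAT2, featureCounts, HTSeq and DESeq2 on mm10 (GRCm38), with no roles; versions and annotation are not given in the sources used here. Libraries used poly-T selection and random hexamers, per the labels' protocols. Even values made up between 70.6% and 73.2% of counts from 1 to 10, so counts may not be independent reads.

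Genes passed filterByExpr of edgeR 4.0.16 (minimum count 10, minimum total 15), were scaled by TMM and tested with glmQLFit (robust) and glmQLFTest under R 4.3.3, with group as the only term and Benjamini-Hochberg adjustment over all 18788 genes, called under 0.05. CPM use TMM-adjusted library sizes. The code was tested on simulated data with known changes. DESeq2 1.42.0, limma-voom (limma 3.58.1), other scalings and filters, protein-coding genes only, a table without immunoglobulin, mitochondrial and rRNA genes, replicate blocks and leaving out each library were alternatives. Replicates were not duplicates (chi-square per degree of freedom 141 in water and 422 in DSS). Lengths are the lower median of basic protein-coding transcripts in GENCODE vM21, matched by symbol (105 of 115 rows). Exons of 28 rows overlap another gene on the opposite strand, and those of 5 rows do so on the same strand.

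The members and lists were chosen with earlier results of these data known. The naming rule took, in each complex, the 3 most abundant genes and, from 10 CPM, the 2 highest and 2 lowest fold changes, besides called genes, isoform pairs, Sdha to Sdhd, Cyc1 and Cycs; of other lists, called genes and the 2 most abundant. Ndufaf1, Ndufaf2, Ndufaf5, Ndufa6, Ndufb2, Atp5g3, Atp5mpl, Cox7b2, Cox8c and Ndufb11b, and in the closing section Pdk4, Hif1a, mt-Nd5, mt-Nd6, Mterf1a and Gabpb1, were named after their values were seen. One gene that the naming rule takes is not reported here.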

Additional observations from a re-analysis of the deposited data

How the results depend on the processing

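No member was called under any of the 14 alternatives, and the lowest adjusted p of a member ran from 0.239 (without water replicate 2) to 1 (leaving out the first replicate of either group). The median over members stayed between -0.34 and -0.42 in the alternatives that kept all libraries and ran from -0.72 to -0.08 when a library was left out; the log2 ratio of summed levels ran from -0.70 to -0.01. Without a library, complex I assembly factors ran from -1.01 to -0.09 in median and from -0.72 to -0.11 in summed level, and the summed level of complex II ran from -0.61 to 0.20. Of all genes, edgeR called 3; the count was 1051 with no count filter, 497 with DESeq2, 0 with limma-voom, 0 with the replicate block, 44 with a crossed replicate block chosen after seeing the data, and from 3 to 196 without a library. Same-numbered libraries had deviations that correlated at -0.104, so the numbers were not taken as pairs, and the causes of these shifts were not tested.

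Several values near 0 changed sign. With upper-quartile scaling, which moved the median of all genes from -0.01 to -0.06, log2 fold changes were -0.04 for Atp5g2 and Sdha, -0.03 for Cox7a2l, and -0.01 for Cox8b and Ndufa4. With limma-voom they were -0.02 for Atp5g2, -0.04 for Cox7a2l, -1.38 for Cox8b and -0.03 for Sdha. With the replicate block they were -0.01 for Atp5g2, -0.03 for Cox7a2l, -1.18 for Cox8b and -0.02 for Sdha; with the crossed replicate block the same except -1.20 for Cox8b (-0.01, -0.03 and -0.02). Without a library, ranges that cross 0 were -0.31 to 0.27 (Atp5g2), -0.45 to 0.38 (Cox7a2l), -6.61 to 1.05 (Cox8b), -0.06 to 0.11 (Ndufa4), -0.40 to 0.34 (Sdha), -0.64 to 0.23 (Cox4i1), -0.64 to 1.31 (Cox4i2), -0.69 to 0.15 (Cox6b1), -0.93 to 0.08 (Cox8a), -0.28 to 0.79 (Ndufa4l2), -0.21 to 0.14 (Ndufs3), -0.57 to 0.16 (Sdhb), -0.50 to 0.02 (Uqcrc1), -0.51 to 0.23 (Uqcrc2), -0.72 to 0.15 (Atp5a1), -0.66 to 0.04 (Atp5b), -0.49 to 0.08 (Atp5pb), -1.30 to 0.24 (Ndufaf8), -0.95 to 0.21 (Sdhd) and -0.87 to 0.10 (Uqcrfs1). With 2 libraries a group, a difference within the errors given was not detectable here.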

Other observations

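Neighbouring mitochondrial lists had medians nearer 0 than the respiratory chain genes, and edgeR called 0 members of each; DESeq2 and limma-voom also called 0. At an unadjusted p under 0.05, 1 gene passed in each of the tricarboxylic acid cycle, biogenesis regulator, hypoxia partner and mitochondrial ribosome lists, and 0 in the others. These are 5%, 6.67%, 9.09% and 1.30% of the 4 lists, against 8.45% of all genes. Of all genes, 18.7% did not overlap and were lower on DSS, and 20.8% were higher. The 38 tested assembly factors of complexes I to V outside the Ndufaf genes had a median log2 fold change of -0.23, with 29 below 0 and the groups not overlapping for 6 (15.8%), all lower. Coa5 (62.1 and 66.1 CPM on water, 48.4 and 68.8 CPM on DSS) and Cox14 (63.9, 41.6, 22.9 and 48.0 CPM), which both act in cytochrome c oxidase assembly, were the most abundant of them. The 77 mitochondrial ribosomal protein genes had a median of -0.23, with 24 (31.2%) not overlapping and lower and 2 (2.60%) higher, and the 89 cytosolic ones had -0.11, with 7 (7.87%) and 4 (4.49%). The 20 genes of the tricarboxylic acid cycle and pyruvate dehydrogenase had -0.10, with 0 not overlapping and lower and 1 (5%) higher. That gene, Pdk4, encodes a kinase that shuts off pyruvate dehydrogenase and reached 5.81 and 5.29 CPM on water, against 9.04 and 22.2 CPM on DSS (fitted log2 fold change 1.49 with SE 0.49, edgeR adjusted p = 0.528). Citrate synthase, Cs, reached 278 and 246 CPM on water, against 173 and 282 CPM on DSS, and Ogdh, of the oxoglutarate dehydrogenase, reached 255 and 201 CPM on water, against 196 and 245 CPM on DSS.

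The mitochondrially encoded subunits did not follow the order of the nuclear ones. Their sum was 136040 and 120420 CPM on water, against 102230 and 91890 CPM on DSS, so the groups did not overlap, and the common order of the nuclear genes held for 0 of 13. mt-Co1 reached 83888 and 66280 CPM on water, against 54421 and 51937 CPM on DSS (fitted log2 fold change -0.50 with SE 0.47), and mt-Cytb reached 22459 and 21564 CPM on water, against 16823 and 13643 CPM on DSS (-0.53, SE 0.44). The groups did not overlap for 7 of the 13 with lower values on DSS (53.8%, against 18.7% of all genes). They did not overlap for 2 with higher values (15.4%, against 20.8%), the complex I genes mt-Nd5 and mt-Nd6. Of these, mt-Nd6 reached 606 and 754 CPM on water, against 1195 and 1275 CPM on DSS (0.86, SE 0.37, edgeR adjusted p = 0.626). mt-Nd5 and mt-Nd6 lie next to each other on opposite strands, and their reads may not be separable. Hif1a, of the oxygen-regulated transcription factor, reached 90.3 and 105.7 CPM on water, against 166 and 194 CPM on DSS (0.88, SE 0.30, adjusted p = 0.537). The 15 regulators of mitochondrial gene expression had a median of -0.13, with 9 below 0. Among them, Esrra reached 210.4 and 76.7 CPM on water, against 71.4 and 115 CPM on DSS, Yy1 reached 78.5 and 94.8 CPM on water, against 86.4 and 94.6 CPM on DSS, Gabpb1, a subunit of GABP, reached 23.8 and 25.5 CPM on water, against 37.3 and 30.3 CPM on DSS, and Mterf1a reached 6.14 and 2.45 CPM on water, against 1.45 and 1.31 CPM on DSS. Of the carriers that feed ATP synthase, Slc25a3, the phosphate carrier, reached 699 and 499.8 CPM on water, against 474 and 598 CPM on DSS, and Slc25a5, an adenine nucleotide carrier, reached 555 and 448 CPM on water, against 270.2 and 560 CPM on DSS. The 10 tested genes of the carrier list also include pore, uncoupling protein, creatine kinase and ATP synthase inhibitor genes. These 10 genes had a median of -0.22 with 8 below 0. The 11 hypoxia and supercomplex partners had a median of -0.05 with 6 below 0. They were led by Ldha (453 and 425 CPM on water, 307 and 595 CPM on DSS) and Epas1 (116 and 164, then 109.7 and 206 CPM).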
